A study of Mus musculus with 12 samples.

Results

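Small RNA libraries made from 50 ng of untreated mouse testis RNA were compared with libraries made from 100 ng of the same kind of RNA. The comparison takes the 4 libraries that the column names of the miRNA, piRNA and spike-in tables mark as 50 ng and 100 ng before oxidation, 2 technical replicates a side, of 12 libraries in all. The RNA was testis total RNA of C57BL/6 males that were 4 months old, with no transgene or drug named in the labels. Small RNAs of 17 to 40 nt were sequenced by the protocol that the labels call 10ng-seq, one of 3 library strategies they name. Both groups carried synthetic spike-in RNAs in proportion to the input, and neither had been treated with sodium periodate (NaIO4), which the study used on the other arm. The remaining libraries are 10 ng before oxidation and 10, 50 and 100 ng after it, again with 2 technical replicates each. The replicates are technical, so every p-value below measures the spread between libraries and not between animals. The question is what an untreated testis profile looks like at these inputs, and what still differs when the input is 50 ng in place of 100 ng.

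A microRNA (miRNA) is a short RNA that an Argonaute protein carries to messenger RNAs, which it recognises mainly through bases 2 to 8, the seed. PIWI-interacting RNAs (piRNAs) are longer, are carried by PIWI proteins in germ cells and silence transposons and other transcripts. Most begin with U, those made by cleavage opposite another piRNA tend to have A at base 10, and their last nucleotide carries a 2′-O-methyl group, which protects it from periodate. The adult mouse testis makes large numbers of piRNAs from long non-coding transcripts during meiosis.

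The miRNAs on which the comparison turns are shown first, 5′ to 3′, with the seed in capitals. They are the miR-125, miR-99/100 and let-7 relatives, in which members with 1 seed moved together or apart, and 3 miRNAs among those that fell most. Sequences and positions are those of RefSeq on GRCm38.p6, and miR-125a-5p (chr17:17830817-17830840, plus strand) lies beside miR-99b-5p (chr17:17830194-17830215, plus strand).
miR-125a-5p: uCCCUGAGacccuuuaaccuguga
miR-125b-5p: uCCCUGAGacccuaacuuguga
miR-99a-5p: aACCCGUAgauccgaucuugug
miR-99b-5p: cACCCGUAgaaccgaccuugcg
miR-100-5p: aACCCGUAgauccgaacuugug
miR-10b-5p: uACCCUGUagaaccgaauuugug
let-7a-5p: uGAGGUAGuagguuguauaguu
let-7b-5p: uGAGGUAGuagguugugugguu
let-7c-5p: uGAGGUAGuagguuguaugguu
let-7d-5p: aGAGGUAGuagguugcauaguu
let-7i-5p: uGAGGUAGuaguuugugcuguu
miR-362-5p: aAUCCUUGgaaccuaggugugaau
miR-204-5p: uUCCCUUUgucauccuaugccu
miR-183-5p: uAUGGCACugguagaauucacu

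The piRNA sequences used below to describe the difference between the inputs, called or not, are shown next, as the deposited table gives them, with T for U. In the first pair, 2 of the most abundant piRNAs, capitals mark base 1 and base 10. The first matches the long non-coding RNA gene Gm21269 (chr7:73824992-73825021) and the second the antisense RNA gene Gm14244 (chr2:127692460-127692490), both on the plus strand in an exon of the GENCODE M21 annotation of mm10.
piRNA of rank 1: TatgtgaatTtcaactgttggctccacagg
piRNA of rank 4: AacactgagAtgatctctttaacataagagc

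The 3 sets of piRNAs with 1 shared start and different 3′ ends let ends be compared on 1 start, and here capitals mark the last 3 bases. They are the sets with the highest level of an end in CCT among those with at least 3 other ends that match 1 non-coding gene, a choice made after the values were seen. The first set starts at chr4:135627824 in 1700029M20Rik, the second at chr7:73817222 in Gm21269 and the third at chr17:27358233 in Gm49794, all long non-coding RNA genes read from the plus strand.
set 1, 24 nt: tagctttgagcatcgctgtctACT
set 1, 28 nt: tagctttgagcatcgctgtctactcGTC
set 1, 29 nt: tagctttgagcatcgctgtctactcgTCC
set 1, 30 nt: tagctttgagcatcgctgtctactcgtCCT
set 2, 26 nt: tggagattgaatttttgaaaaagCCT
set 2, 30 nt: tggagattgaatttttgaaaaagccttTGG
set 2, 31 nt: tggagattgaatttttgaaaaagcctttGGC
set 2, 32 nt: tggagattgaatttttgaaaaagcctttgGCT
set 2, 33 nt: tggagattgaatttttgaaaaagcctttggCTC
set 3, 26 nt: tgcttcattctgtggatctgacaTGC
set 3, 27 nt: tgcttcattctgtggatctgacatGCC
set 3, 28 nt: tgcttcattctgtggatctgacatgCCT
set 3, 29 nt: tgcttcattctgtggatctgacatgcCTT
set 3, 30 nt: tgcttcattctgtggatctgacatgccTTA

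The last 3 piRNAs hold, in capitals, 1 of a pair of 7-base words taken up below, or are the most abundant piRNA that rose with a unique match (capitals at bases 1 and 10). They match Gm21269 (chr7:73825376-73825404, plus strand), 1700020N18Rik (chr1:91405051-91405078, minus strand) and Gm10505 (chr17:27325602-27325629, plus strand).
word TGGCACC: tggtaactctgttggatgaggcTGGCACC
word GCCTTGG: tcctgtagctttGCCTTGGctcaagacc
rise: TtagaccagAgacagagattgaaaatgc

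Depth, recovered from the steps of the deposited RPM values (reads scaled to 1 common total), ran from 2578922 to 3347735 reads in the 50 ng pair and from 2965389 to 3280001 in the 100 ng pair. A feature with 3 reads therefore stood at 0.896 to 1.16 RPM. The deposited values cover 1915 miRNAs and 1018402 piRNA sequences. Those averaging 5 RPM or more over the 6 libraries before oxidation, 10 ng included, were tested, which left 166 miRNAs and 20597 piRNA sequences. A feature could therefore be tested with a mean under 5 RPM in the 4 libraries compared. The tested miRNAs held 99.8% of miRNA RPM. Technical replicates of 1 input were closer to each other than to the other input. The chi-square statistic per piRNA sequence was 2.14 and 2.12 within an input and 3.95 to 5.56 between inputs, and per miRNA it was 3.01 and 6.35 against 33.5 to 59.8. No pair of libraries therefore differed by sampling noise alone.

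The untreated profile was mostly piRNA. The piRNA share of reads was 80.37% and 80.63% at 50 ng and 79.92% and 79.55% at 100 ng, and both 50 ng libraries lay above both 100 ng libraries. The miRNA share was 13.06% and 12.81% at 50 ng and 13.56% and 13.85% at 100 ng, in the opposite order. The summed miRNA level was 129358 ± 1743 RPM at 50 ng and 137027 ± 2031 RPM at 100 ng (SD, n = 2). There were 6.15 and 6.29 piRNA reads for each miRNA read at 50 ng, against 5.89 and 5.75 at 100 ng. At 10 ng, the ratio was 6.99 and 6.79. An exact permutation test of 2 libraries against 2 cannot go below p = 0.333 (two-sided), and each of these differences gave that value. The order for miRNA held relative to all reads and not relative to spike-in reads: with spike-in scaling, the summed miRNA level at 50 ng was 0.04 higher on the log2 scale rather than 0.08 lower.

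Length and base composition of the piRNA reads barely moved with input. Reads of 30 nt formed the peak, with 25.4% and 25.3% of piRNA reads at 50 ng and 25.5% in each 100 ng library. Reads of 29 to 32 nt, the range of pachytene piRNAs bound by MIWI, made up 64.47% and 64.65% in the 50 ng libraries, against 64.91% and 64.94%. Reads of 26 to 28 nt, nearer the size bound by MILI, made up 23.46% and 23.43% against 23.06% in each 100 ng library. Both ranges were ordered by input, by less than 0.5 percentage points. A T at base 1 was found in 88.44% and 88.46% of reads at 50 ng and 88.50% and 88.58% at 100 ng, and A at base 10 in 34.04% and 34.16% against 34.03% and 33.98%. Among bases 1, 10 and the last, the last shifted most. T was less frequent there at 50 ng, with 36.33% and 36.36% against 37.40% and 37.60%. A was more frequent, with 16.47% and 16.51% against 15.88% in each. The fall in T was not general. Reads ending in CCT, taken up below, held 2.51% at 50 ng and 4.59% at 100 ng on average. Tested sequences ending in AT, GT and TT had median log2 differences (50 minus 100 ng) of 0.09, 0.13 and 0.10. For those ending in CT the median was -0.07.

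**Figure D1:**
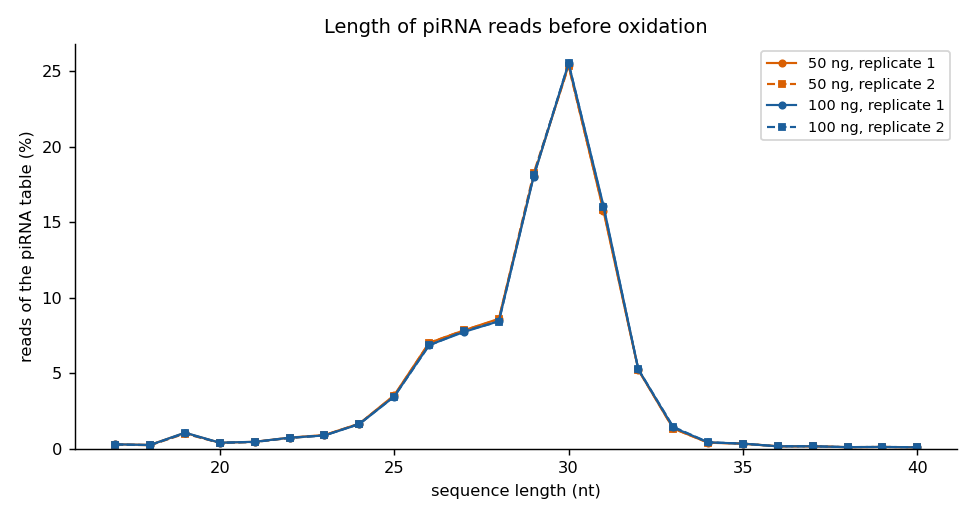
Share of piRNA reads (%) by read length (nt) in the 2 libraries at 50 ng and the 2 at 100 ng before oxidation, 1 line a library. The 4 lines lie on each other, with the peak at 30 nt holding 25.3% to 25.5% of reads.

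The miRNA profile was led by a few species. The 12 highest held 76.6% of miRNA RPM, and miR-741-3p, of the X-linked testis cluster, held 23.8% alone. Members of that cluster, a group of fast-evolving miRNAs on the X chromosome expressed in male germ cells, held 36.0% of miRNA RPM at 50 ng and 36.2% at 100 ng. Next came miR-143-3p, known from smooth muscle and other mesenchymal cells, then miR-10b-5p from the Hox clusters, miR-100-5p and miR-99a-5p. Bulk levels cannot tell fewer cells of a type from less RNA per cell.

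Between 50 and 100 ng, 20 miRNAs were called higher at 50 ng and 19 lower of the 166 tested, which is 12% and 11.4% (limma on log2(RPM + 1), Benjamini-Hochberg adjusted p under 0.05). Without adjustment 57 passed, and fold changes on this scale understate the change of low miRNAs. The median over all tested was -0.00. In 52 miRNAs (31.3%) both 50 ng libraries were above both 100 ng libraries, and in another 52 (31.3%) both were below. Most called differences were small: a log2 difference of at least 1 in size was seen in 3 rises and 3 falls. Dividing by the median or by spike-in reads in place of all reads moved the middle of the table up by 0.12 and 0.11, and the split then became 25 higher and 10 lower, or 27 higher and 10 lower. Without 1 library, 11 to 14 were called higher and 11 to 16 lower. With the spread shared over all 12 libraries, 0 were called higher and 2 lower. Directions below are relative to all reads.

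**Figure D2:**
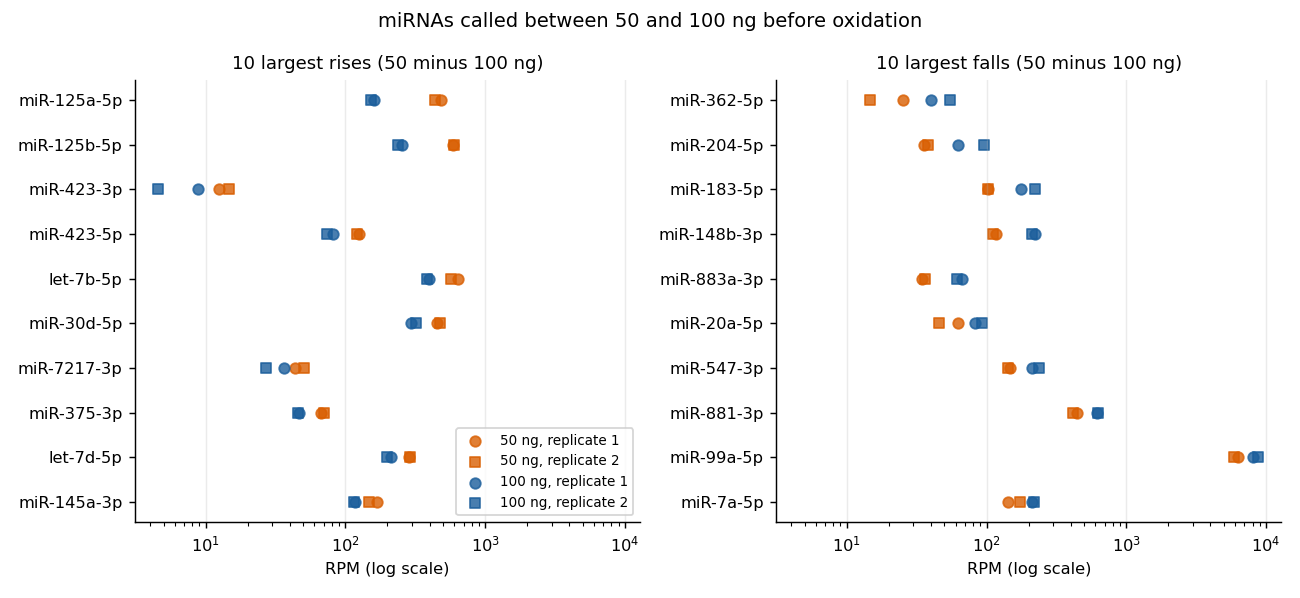
Level (RPM) in the 2 libraries at 50 ng and the 2 at 100 ng before oxidation, 1 point a library, coloured by input. The panels hold the largest called rises and the largest called falls among miRNAs averaging 10 RPM or more. The largest rises are miR-125a-5p and miR-125b-5p, with log2 differences of 50 minus 100 ng of 1.56 and 1.27.

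The miR-125 pair stood out among the rises. For miR-125a-5p, a relative of the lin-4 miRNA, the values were 480 and 439 RPM at 50 ng and 159 and 151 RPM at 100 ng, a log2 difference of 1.56 ± 0.08 (SE, limma adjusted p = 1.1e-37). For miR-125b-5p they were 587 and 597 RPM against 254 and 237 RPM, a difference of 1.27 ± 0.07 (limma adjusted p = 6.6e-32). Both 50 ng libraries were above both 100 ng libraries in each case, as in all 20 called rises. At 10 ng, in a comparison that shares the 100 ng libraries, their mean levels were 3099 and 2370 RPM. The 3 tested miRNAs with the seed CCCUGAG summed to 1058 RPM at 50 ng and 409.4 RPM at 100 ng. Of them 2 were called higher and none lower, against 12% and 11.4% of all tested.

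The miR-99 and miR-100 miRNAs, encoded near let-7 and miR-125 genes, went the other way. For miR-100-5p the levels were 8450 and 7948 RPM at 50 ng and 10349 and 11400 RPM at 100 ng (log2 difference -0.41 ± 0.05, limma adjusted p = 1.8e-11). For miR-99a-5p they were 6318 and 5929 against 8038 and 8796 RPM (-0.46), and for miR-99b-5p 3752 and 3566 against 4187 and 4849 RPM (-0.30). The 3 share the seed ACCCGUA, and all were called lower, against 11.4% of all tested. Their summed level was 17981 RPM at 50 ng and 23809 RPM at 100 ng. The related miR-10b-5p was not called, at 12175 and 11811 against 10952 and 11575 RPM (0.09, limma adjusted p = 0.16), although both 50 ng values lay above both 100 ng values. The call of miR-99a-5p was lost under quantile normalization, that of miR-100-5p there and after median centring, and that of miR-99b-5p in both and with spike-in scaling. Members of 1 gene neighbourhood thus moved in opposite directions: miR-99b-5p was lower and miR-125a-5p higher.

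The let-7 family is known for repressing growth genes in differentiated cells. Of its 10 tested members 4 were called higher and 1 lower, against 12% and 11.4% of all tested, with a median of 0.33. Levels of let-7b-5p were 637 and 570 RPM at 50 ng and 395 and 386 RPM at 100 ng (0.63). The most abundant of the 4, let-7a-5p, stood at 2869 and 2730 against 2518 and 2316 RPM (0.21), let-7c-5p at 2285 and 2194 against 1780 and 1588 RPM (0.41), and let-7d-5p rose by 0.50. The exception, let-7i-5p, was lower at 50 ng, with 354 and 307 against 407 and 399 RPM (-0.29). All 4 miRNAs of the miR-151 and miR-423 genes, listed with earlier results of these data known, were called higher, against 12% of all tested. Their median was 0.81. Of these, miR-151-3p lost its call without any 1 of the 4 libraries, and miR-423-3p without either 50 ng library or without 100 ng replicate 2, under quantile normalization and with DESeq2. Among them, miR-423-5p stood at 125.2 and 121 RPM against 81.3 and 74.4 RPM (0.66), and miR-151-5p at 636 and 618 against 499 and 505 RPM (0.32). Other rises were miR-30d-5p (452 and 473 against 296 and 318 RPM, 0.59) and miR-375-3p, a miRNA of endocrine and epithelial cells (66.7 and 70.8 against 46.2 and 45.7 RPM, 0.57). Other calls were less firm: that of let-7a-5p was lost without 50 ng replicate 1 or 100 ng replicate 2, those of let-7i-5p and miR-375-3p without 50 ng replicate 2 or either 100 ng library, and that of let-7i-5p also after median centring and spike-in scaling. Those of let-7b-5p and miR-30d-5p were lost under quantile normalization. The called rises together held 21.6% of the tested miRNA RPM at 50 ng and 16.9% at 100 ng.

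The largest falls were in less abundant miRNAs. Among called miRNAs of any level, miR-145a-5p fell most, at 3.49 and 3.88 RPM against 15.8 and 14.3 RPM (-1.78), while its other arm miR-145a-3p was called higher (0.43). It averages under 10 RPM and was named after its values were seen. Levels of miR-362-5p were 25.2 and 14.6 RPM at 50 ng and 39.8 and 54.9 RPM at 100 ng (-1.24 ± 0.28, limma adjusted p = 1.6e-04). For miR-204-5p they were 35.7 and 38.2 against 62.4 and 96.04 RPM (-1.05), and for miR-183-5p, of a cluster best known from sensory cells, 103 and 102 against 177 and 221 RPM (-0.94 ± 0.13, limma adjusted p = 4.0e-09). In these 3, as in all 19 called falls, the inputs did not overlap. In miR-204-5p and miR-183-5p the 100 ng replicates lay farther apart than the 50 ng ones. For miR-148b-3p the levels were 117 and 112 against 222 and 210 RPM (-0.91). Within the X-linked cluster 3 of 26 tested members were called higher and 4 lower, near the 12% and 11.4% over all tested, with a median of -0.03. Its leader miR-741-3p was lower by a small amount at 29530 and 29442 RPM against 33938 and 33834 RPM (-0.20 ± 0.04, limma adjusted p = 9.6e-05), and miR-547-3p was lower by more, at 148.1 and 141.9 against 210.4 and 237.5 RPM (-0.62). The call of miR-741-3p was lost after median centring, quantile normalization and spike-in scaling and without 50 ng replicate 2, and its difference was 0 under quantile normalization. Calls were also lost for miR-145a-5p without 100 ng replicate 1, for miR-145a-3p without 50 ng replicate 1 or either 100 ng library, and for miR-362-5p without replicate 2 of either input. That of miR-204-5p was lost without 100 ng replicate 2, and both it and that of miR-362-5p under quantile normalization. The called falls held 50.4% of tested miRNA RPM at 50 ng and 57.2% at 100 ng.

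The lists below had at most 1 member called higher and at most 2 lower, where 12% and 11.4% of all tested miRNAs were called. None of the tested members of the miR-15/16 (4 tested), miR-23/27/24 (5), miR-181 (3), miR-29 (1) and Dlk1-Dio3 (5) groups passed, and together with the 2 tested arms of miR-202 these 20 miRNAs held 0 with an unadjusted limma p under 0.05. In the miR-30 family 1 of 9 was higher and 1 lower, and in the miR-17-92 clusters 1 of 7 was higher and 1 lower, against 12% and 11.4% of all tested. The medians were -0.04 and -0.56, against -0.00 over all tested. The summed miR-17-92 levels overlapped, at 1234 and 1186 RPM at 50 ng against 1146 and 1190 RPM at 100 ng. For cell types, the germ cell list of miR-34b, miR-34c and miR-449a, which rises in meiotic and later germ cells, had 0 higher and 1 lower of 4 tested: miR-34c-5p stood at 1842 and 1762 RPM against 2256 and 2152 RPM (-0.29), a call lost after median centring and with spike-in scaling. The Sertoli cell marker miR-202, in both arms, was not called, and summed to 171 and 175 RPM at 50 ng and 200 and 187 RPM at 100 ng. The smooth muscle and vessel list had 1 higher and 2 lower of 6 tested, larger shares than the 12% and 11.4% of all tested. It summed to 12480 and 12373 RPM against 13763 and 13940 RPM. Blood markers were near 0, with 2.69 to 10.5 RPM summed per library and none reaching the test. Their part in the differences between inputs was not tested.

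For piRNA sequences, 461 were called higher at 50 ng and 348 lower of 20597, or 2.24% and 1.69% (limma, adjusted p under 0.05). Without adjustment 3190 passed. Both 50 ng libraries were above both 100 ng libraries in 6061 sequences (29.4%) and below in 4113 (20%), and the median over all tested was 0.09. The split depends on the scaling: rises were 57.0% of calls here, 36.9% with edgeR and TMM, 38.6% with DESeq2, 42.9% after median centring, and 73.8% with spike-in scaling, which moved the middle of the table by 0.11. Leaving out 1 library lowered the called shares to between 0.364% (without 50 ng replicate 1 or 2) and 0.995% (without 100 ng replicate 1) higher, and to between 0.384% (without 100 ng replicate 2) and 0.845% (without 100 ng replicate 1) lower. Among called sequences 160 rises and 208 falls reached a log2 difference of 1. With the spread shared over all 12 libraries no sequence was called by limma in either direction, and 707 passed without adjustment.

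Of the 6 most abundant piRNAs 5 were called lower, against 1.69% of all tested. Among the 1736 sequences averaging 50 RPM or more, tested alone, 21.8% were called higher and 13.2% lower. The first, from Gm21269, stood at 5522 and 5524 RPM at 50 ng and 6535 and 6185 RPM at 100 ng (-0.20, limma adjusted p = 2.6e-04), and the fourth, from Gm14244, at 2489 and 2638 against 3109 and 3031 RPM (-0.26). The third fell by more, at 2816 and 2665 against 3820 and 4229 RPM (-0.55), and the sixth, a 30 nt sequence ending in ACG, by the most, at 1710 and 1721 against 2816 and 3210 RPM (-0.81). The fifth was not called (0.13). The inputs did not overlap in the 5 that fell, which held for each of the 348 sequences called lower. The calls of ranks 1, 2 and 4 were lost with spike-in scaling and without 50 ng replicate 1, that of rank 1 also without 50 ng replicate 2, and those of ranks 1 to 4 under quantile normalization. The printed rise from Gm10505 stood at 502.5 and 488 RPM at 50 ng and 369.6 and 341.5 RPM at 100 ng (0.48, limma adjusted p = 3.3e-04), a call lost without 50 ng replicate 1. The 5 largest rises, of 2.05 to 2.56, were all under 9 RPM in every 50 ng and 100 ng library, and the 5 largest falls, of -2.14 to -2.40, ran up to 32.6 RPM.

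Calls in both directions fell on sequences with a match to a transcript. Of the tested sequences 3010 (14.6%) matched a GENCODE transcript, as did 49 of the 461 higher (10.6%) and 47 of the 348 lower (13.5%). Among single genes, all tested sequences that matched Gm21269 summed to 11609 and 11806 RPM at 50 ng and 12840 and 12449 RPM at 100 ng. Gm49794 matched 328 sequences, 5 called higher and 5 lower, which summed to 6972 and 6886 against 6413 and 6519 RPM. For 1700001L05Rik 0 of 131 were higher and 6 lower, and the sums were 5724 and 5851 against 6448 and 6759 RPM. For Atg2b, a protein-coding gene with a retained-intron transcript matched here, 2 of 50 were higher and 0 lower, with sums of 2351 and 2323 against 1918 and 1887 RPM. Over all tested sequences 2.24% were called higher and 1.69% lower. None of these 4 sums overlapped between inputs, and the share over all gene sums is not given here. Among single tested sequences, 29.4% were higher in both 50 ng libraries than in both 100 ng libraries, and 20% were lower. The piRNA of rank 1 alone gave 5522 and 5524 RPM of the Gm21269 sums at 50 ng and 6535 and 6185 RPM at 100 ng. Most of the difference in the Gm21269 sums thus lay in this 1 sequence.

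The clearest mark of the piRNAs that were lower at 50 ng was the 3′ end. Sequences ending in CCT, read on the strand of the piRNA, made up 4.04% of those tested and 184 of the 348 called lower (52.9%). Of 833 tested sequences with this end, 0 were called higher and 184 lower (22.1%), against 461 and 164 of the 19764 with another end. Their median was -0.79, against 0.11 for the other ends, and 92.2% lay below 0. This end was singled out from the 64 possible triplets after its values were seen, so no test is given, and whether library construction gives such ends was not tested. Without 1 library the number called lower was 41 to 102, and the median -0.91 to -0.70. Among the other triplets with at least 20 tested sequences, medians ran from -0.04 to 0.28. The base before it went with the size: GCCT had a median of -0.98, with 156 of its sequences called lower, while ACCT, CCCT and TCCT had -0.47, -0.40 and -0.48.

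**Figure D3:**
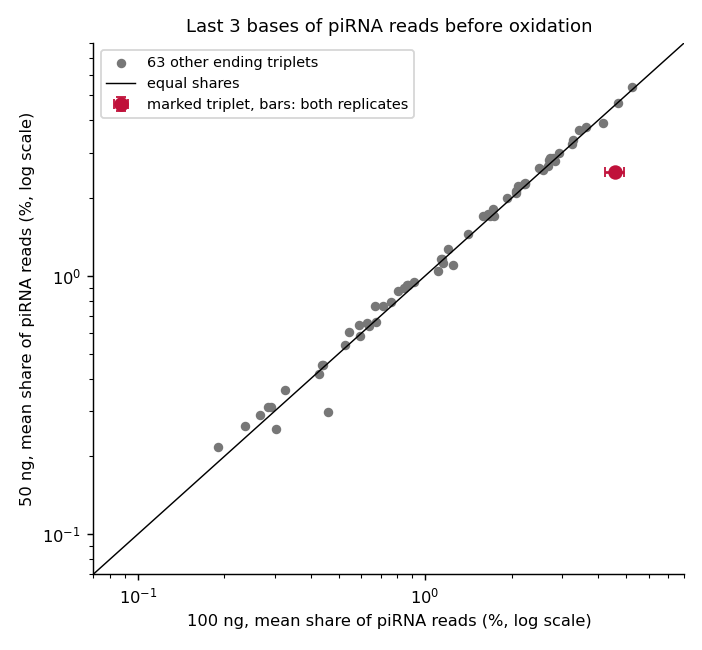
Share of piRNA reads (%) by the last 3 bases, mean at 50 ng against mean at 100 ng on log axes, 1 point a triplet. Bars on CCT alone give the range of the 2 libraries, and the rarest of the 64 triplets lie outside the axes. CCT lies below the diagonal, at 2.51% against 4.59%, ACG lies below it too, with a log2 ratio of -0.62, and the other triplets lie closer to it. The 23 tested sequences ending in ACG have a median of 0.02, and of them only the piRNA of rank 6 was called lower.

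As a share of all piRNA reads, tested or not, CCT ends made up 2.48% and 2.55% at 50 ng and 4.24% and 4.93% at 100 ng. The 100 ng libraries were above both 50 ng libraries, and apart from each other by more than the 50 ng pair. At 10 ng the share was 4.13% and 3.21%, so the shares did not follow the order of the inputs. Leaving out the 10 most abundant sequences gave 2.20% and 2.27% against 3.74% and 4.33%. Counting each distinct sequence once gave a smaller gap, 3.04% and 3.16% against 3.85% and 4.13%. The gap was present at both extremes of length, with 2.12% and 2.08% against 3.66% and 4.41% in reads of 17 to 25 nt and 4.12% and 4.18% against 6.06% and 6.76% in reads of 33 to 40 nt.

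Sequences with 1 start and different ends bring this down to a base or more at the 3′ end. Of 424 sets that share their first 20 bases and hold both a CCT end and another end, the CCT member was lower than the others in 383, and the median difference over all 424 was -0.79 on the log2 scale. In the printed second set, the 26 nt piRNA ending in CCT stood at 50.4 and 58.8 RPM at 50 ng and 94.8 and 99.7 RPM at 100 ng (-0.82, limma adjusted p = 0.0042), while its 4 longer relatives lay between -0.33 and -0.10 and were not called. Its call was lost without any 1 of the 4 libraries. In the third set, the CCT end stood at 35.7 and 39.1 against 68.5 and 106.1 RPM (-1.17, limma adjusted p = 2.0e-04), a call lost without 100 ng replicate 2. There the sequence 1 base shorter lay at -0.26 and that 1 base longer at -0.07. The first set did not show it: its CCT end was at -0.42, beside -0.37 and -0.42 for the ends in TCC and GTC, and none of its members was called.

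Outside the CCT ends, a scan of all 7-base words, on the strand of the piRNA and at any position, gave 5433 words held by sequences with at least 20 different starts. TGGCACC and GCCTTGG had the lowest medians, -0.58 in 90 sequences and -0.49 in 101, and the other words ran from -0.34 to 0.63. The words were chosen after their values were seen. Either word was held by 191 of the 19764 sequences that do not end in CCT (0.966%), of which 0 were called higher and 29 lower (15.2%), with a median of -0.52. The printed piRNA ending in TGGCACC stood at 9.31 and 9.86 RPM at 50 ng and 34.4 and 57.6 RPM at 100 ng (-2.11, limma adjusted p = 3.8e-05). The printed GCCTTGG sequence, at 3.88 and 4.78 against 12.8 and 13.7 RPM, was not called (-1.43, limma adjusted p = 0.16). In miRNAs the same letters gave no single direction. The only tested miRNA with a matched sequence ending in CCU is miR-204-5p, which fell, and the only one holding UGGCACC is miR-871-3p, which rose by 0.19 (a call lost under quantile normalization and without 50 ng replicate 2 or 100 ng replicate 1). Both words resemble part of a primer commonly used for small RNA libraries, and GCCT, the CCT end with the lowest median, is the start of GCCTTGG. No primer or adapter sequence of the study was used here, so whether priming or trimming gives these ends and words was not tested. The values alone cannot tell that from a property of the piRNAs.

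**Figure D4:**
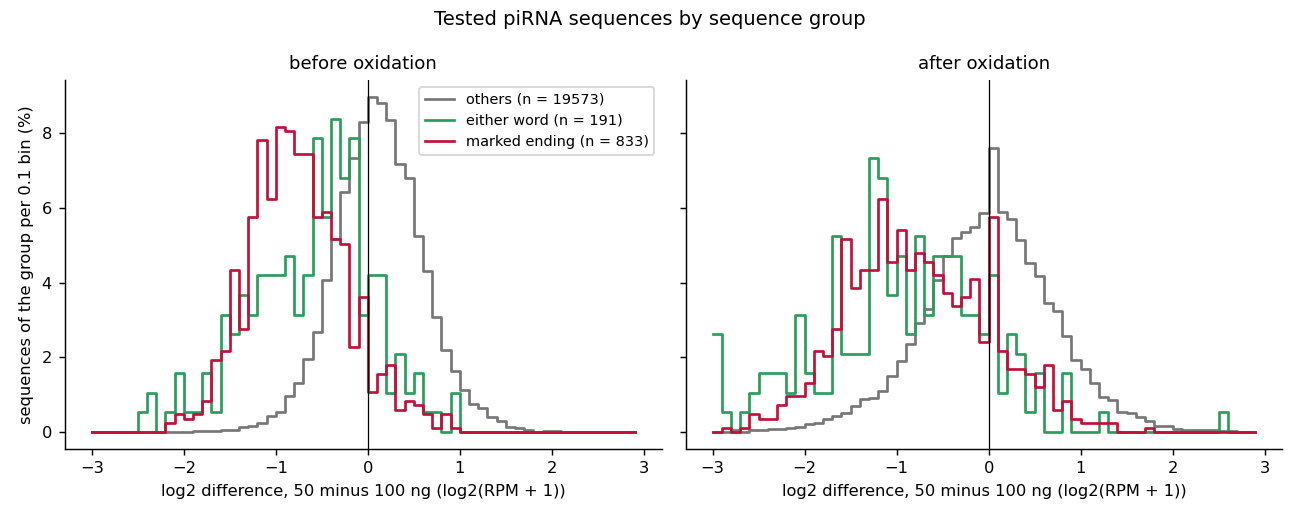
Distribution of the log2 difference of 50 minus 100 ng over tested piRNA sequences in bins (values beyond the axis are in the end bins), as percent of each group, for sequences ending in CCT, those with either 7-base word and all others, before and after oxidation. Before oxidation the medians are -0.79, -0.52 and 0.11, and after it the first 2 groups again lie left of the others.

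The libraries made after oxidation give the same input contrast in other libraries of this RNA. There 0 sequences were called higher and 10 lower of the same 20597 (0.0486% lower), and 1136 passed without adjustment. The test of whether the input difference changed with oxidation called 0 (limma), and 695 passed without adjustment. That test shares its spread over all 12 libraries, where the input difference before oxidation was itself called in 0 sequences. It therefore cannot decide whether the difference changed. Of the 348 sequences called lower before oxidation, 328 (94.3%) had a value below 0 after it, against 50.2% of all tested. Of the 461 called higher, 296 (64.2%) had a value above 0, against 48.0% of all. CCT ends had a median of -0.82 after oxidation, with 81.3% below 0, against -0.00 over all tested, and sequences with either word had -0.91. In the scan of words after oxidation the same pair again had the lowest medians, -1.06 for TGGCACC and -0.76 for GCCTTGG. The miRNAs, most of which lack the methyl group, are not compared there.

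A piRNA sequence was detected in any of the 4 libraries in 725409 cases and in all 4 in 93837, and the latter held 81.8% to 82.1% of piRNA RPM. Sequences found only at 50 ng numbered 229370, and 50.6% of them had 1 read in all. Those found only at 100 ng numbered 257344, and 54.5% had 1 read. In both 50 ng libraries and neither 100 ng library 18114 sequences were found, none above a mean of 3.64 RPM, and the reverse held for 22991, none above 3.92 RPM. Thinned to 2072733 reads a library, the number of distinct sequences was 287333 and 292223 at 50 ng and 305975 and 295974 at 100 ng.

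The spike-ins are synthetic RNAs named sp1, sp2 and sp3, each also listed with the suffix Me, read here as the form with a 2′-O-methylated end, which resists periodate. The plain forms made up a smaller share of spike-in reads at 50 ng, 21.88% (95% exact Clopper-Pearson interval 21.5 to 22.3) and 22.30% (21.9 to 22.7), than at 100 ng, 26.74% (26.4 to 27.1) and 27.03% (26.7 to 27.4). These intervals cover counting error only. The total, relative to the reads behind the RPM values, was 17676 and 15594 RPM at 50 ng against 18305 and 17766, so both 50 ng libraries lay below both 100 ng libraries, by little. Among single RNAs, sp3 was lower at 50 ng, with 2797 and 2490 against 3600 and 3675 RPM, and sp2Me overlapped, with 13294 and 11623 against 12809 and 12435. The pairs did not move alike: the plain share of sp3 with sp3Me was 85.4% and 84.5% at 50 ng and 87.1% and 88.6% at 100 ng, whereas that of sp1 with sp1Me was 93.8% and 93.3% against 90.3% and 90.7%. For sp2 with sp2Me it was 3.69% and 3.89% against 4.84% and 4.26%, so the sp2 and sp3 pairs moved as the summed share did and the sp1 pair moved the opposite way.

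**Figure D5:**
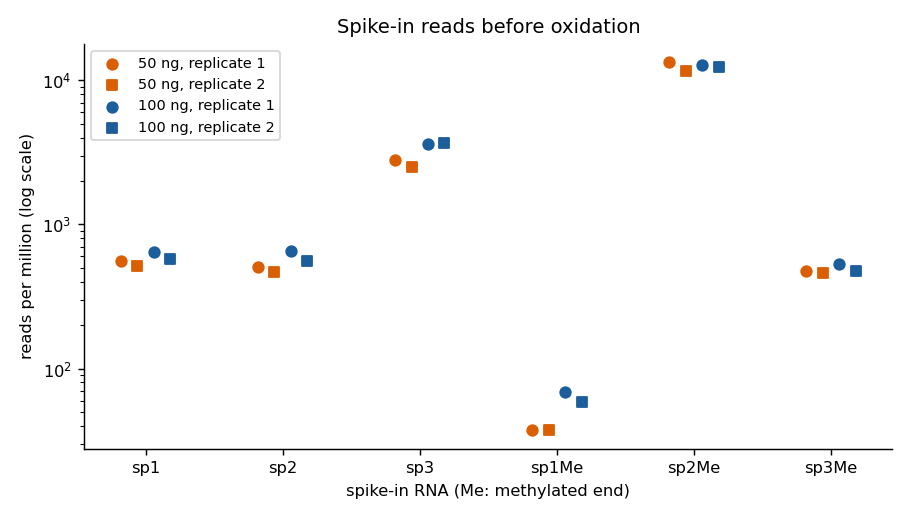
Level of each of the 6 spike-in RNAs (RPM, log axis) in the 2 libraries at 50 ng and the 2 at 100 ng before oxidation, 1 point a library. Both 50 ng points of sp3 and of sp1Me lie below both 100 ng points, and those of sp2Me overlap.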

How the data were processed

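Per the labels, mouse testis small RNAs were sequenced in 12 libraries; 6 were made before oxidation. The authors deposited RPM values per miRNA and per piRNA sequence, and raw read counts per spike-in. Per the submitters' processing notes, reads were mapped with Bowtie to mm10, and hg38 is also named, in a role that the sources used here do not give. The RPM steps gave whole reads within 0.01 for all piRNA values, and these set the depth. A blank line in the spike-in table was left out. The main test was limma 3.58.1 (R 4.3.3) on log2(RPM + 1), with a trend, over 6 libraries before oxidation with 3 group means, for features averaging 5 RPM or more. Counts recovered from the RPM were tested with edgeR 4.0.16 and DESeq2 1.42.0 as alternatives. On simulated data with 1 common spread, the miRNA test recovered 84.6% of 2-fold and 100% of 4-fold changes among 166 miRNAs. The piRNA test recovered 10.4% and 83.3% among 20597 sequences, of which 200 were changed. In that simulation, piRNA changes of 2-fold or less were mostly missed.

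Named miRNAs are, among those averaging 10 RPM or more, the 12 highest, the 10 largest called rises and falls, and the 2 highest of each list, and named piRNAs the 6 highest and 5 largest called rises and falls. The members and lists were chosen with earlier results of these data known. The CCT end, the 7-base words and the printed sets, and miRNAs named only for their letters, were chosen after values were seen. Sequences were matched to GENCODE M21 transcripts by exact identity, and miRNAs to RefSeq (GRCm38.p6), where 144 of 166 matched. Near-identical miRNA copies share reads in sixths and are uncertain. Other pseudocounts, filters, scalings, libraries and a replicate block were tried.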

Additional observations from a re-analysis of the deposited data

How the results depend on the processing

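Calls are given as numbers of miRNAs and as percentages of the piRNA sequences tested. Requiring also a log2 difference of at least 1 left 3 miRNAs higher and 3 lower, and 0.777% and 1.01% of piRNA sequences. Lower miRNAs numbered 10 after median centring, 11 after quantile normalization and 10 with spike-in scaling. With the spread shared over all 12 libraries, 0 miRNAs were called higher and 2 lower, and 0% of piRNA sequences, CCT ends (0) and sequences with either word (0) included; the oxidized libraries enter that spread. With only the 4 libraries, 4.21% of piRNA sequences were higher and 3.79% lower, with 1 CCT end higher and 333 lower and 56 sequences with either word lower. The share higher was 0.278% with a filter of 1 RPM, 1.45% with edgeR and TMM and 1.00% with DESeq2. The share lower was 13.2% with a filter of 50 RPM, where 1 CCT end was higher and 61 lower and 13 sequences with either word were lower, and 0.884% with spike-in scaling, where 1 CCT end was higher and 117 lower. A pseudocount of 10 moved the medians to -0.42 (CCT ends) and -0.28 (either word). The piRNA of rank 2 turned to 0.13 under quantile normalization. These settings change the number of features, the scale or the spread; the cause of each change was not tested.

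The log2 ratio of summed miRNA RPM turned from -0.083 to 0.036 with spike-in scaling, and that of summed piRNA RPM was 0.13 with it and 0.0082 in sequences of at least 5 RPM. In percentage points, such sequences gave -0.030 under 26 nt, -0.19 for 29 to 32 nt, -0.16 over 32 nt, 0.15 for U at base 1 (reversed) and 0.19 for A at base 10. Counting each sequence once gave 0.088 for 26 to 28 nt, -0.070 for 29 to 32 nt, -0.032 over 32 nt, -0.0093 for A at base 10 (reversed), and a log2 ratio of -0.36 for CCT ends. The unmethylated share differed by 2.98 points in the sp1 pair (reversed), -0.76 in sp2 and -2.92 in sp3, and the log2 ratio of spike-in reads was -0.22 in sp1 and -0.41 in sp3.

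Leaving out each of the 4 libraries in turn gave 11 to 14 miRNAs higher and 11 to 16 lower, and 0.364% to 0.995% of piRNA sequences higher and 0.384% to 0.845% lower. It left 0 CCT ends higher and 41 to 102 lower (median -0.91 to -0.70), and 0 sequences with either word higher and 11 to 18 lower (median -0.59 to -0.46). Log2 ratios were 0.078 to 0.12 for piRNA per miRNA read, -0.098 to -0.068 for summed miRNA, 0.011 to 0.017 for summed piRNA, -0.97 to -0.75 for CCT ends and -0.21 to -0.029 for spike-in reads. In points, the ranges were 0.0038 to 0.18 under 26 nt, 0.38 to 0.41 for 26 to 28 nt, -0.46 to -0.28 for 29 to 32 nt, -0.14 to -0.091 over 32 nt, -0.12 to -0.042 for U at base 1, 0.033 to 0.15 for A at base 10 and -5.01 to -4.59 for the unmethylated share. A lone library is assumed to vary like the other groups. Same-numbered libraries did not deviate together (r = -0.028 for miRNAs and -0.013 for piRNA sequences), so they share only a number; with a replicate block 20 miRNAs were higher and 18 lower, and 2.25% of piRNA sequences higher and 1.74% lower. Of the 39 called miRNAs, 10 were called under each alternative other than all 12 libraries, among them miR-125a-5p, miR-125b-5p and miR-183-5p, and 1 changed sign under some alternative. In the simulated data, piRNA changes of 2-fold or less were mostly missed, and the rate in the real libraries was not measured.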
